A study of Mus musculus with 9 samples.

Results

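The genes described here encode GABA-A receptor subunits, 5 of the alpha class (Gabra2, Gabra3, Gabra4, Gabra5 and Gabra6) and 2 of the beta class (Gabrb1 and Gabrb2). They were picked by gene name and not by any measured value, and all 7 were present among the 53465 genes of the deposited tables. RNA sequencing was performed on whole brain of 9 male C57BL/6 mice, 3 per group, each 7 weeks old at the start. Control mice (CON) ate standard chow and were injected with saline. Diabetic neuropathic pain mice (DNP) were fed for 4 weeks on chow of 60% fat, followed by daily streptozotocin, which destroys insulin-producing cells, for 7 days at a dose of 50 mg/kg, and finally saline. Baclofen-treated mice (BAC) had the same diet and streptozotocin, and then daily baclofen for 7 days at a dose of 8 mg/kg. Diabetic mice entered the study only with high blood glucose and lowered pain thresholds. The diabetic groups share both diet and toxin, so that the parts of either in a difference from CON cannot be told apart, and no group received baclofen without diabetes. Total counts ranged from 13107382 to 16008129 per library.

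GABA-A receptors are ligand-gated chloride channels built from 5 subunits, and they carry most fast inhibition in the brain. The transmitter binds between an alpha and a beta subunit. The alpha subunit sets where a receptor is found and which drugs act on it: alpha2 is common in the forebrain and striatum, alpha4 and alpha5 contribute to receptors outside synapses, and alpha6 is made almost only by granule cells of the cerebellum. Beta subunits are needed for assembly and transport to the cell surface. Baclofen activates another kind of receptor, the G-protein-coupled GABA-B receptor.

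Several members lie side by side in the mouse genome (GRCm38 coordinates from the GENCODE annotation). Gabra2 (chr5:70957597-71095849, minus strand), Gabra4 (chr5:71569749-71658308, minus strand) and Gabrb1 (chr5:71658113-72149037, plus strand) form 1 cluster on chromosome 5. Gabra6 (chr11:42306437-42321072, minus strand) and Gabrb2 (chr11:42419757-42629028, plus strand) are neighbours on chromosome 11. Gabra5 (chr7:57407672-57510059, minus strand) lies on chromosome 7 and Gabra3 (chrX:72432681-72656848, minus strand) on the X chromosome. The exons of Gabra4 and Gabrb1 share 46 bases on opposite strands, and those of Gabra5 share 148 bases with the antisense gene Gm9962. The libraries did not keep the strand, so reads from these shared stretches cannot be told apart.

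The sequences before the RefSeq starts of the chromosome 11 neighbours are shown. These genes were chosen because Gabrb2 was the only member without overlap between CON and the diabetic groups, and Gabra6 differed most among libraries. Both sequences come from the GRCm38.p6 table and run 5′ to 3′ over the 250 bases that end at the start. In Gabrb2 (chr11:42420190-42420439, plus strand) the capitals mark TATAAA, whose first base lies 30 bases before the RefSeq start. The GENCODE annotation begins Gabrb2 earlier, at chr11:42419757, so that the printed window lies inside the gene as annotated there. RefSeq lists 3 starts for Gabrb2, of which the first is shown, and the windows of the other two (chr11:42420524-42420823 and chr11:42420951-42421250) hold no TATAAA and 9 CG dinucleotides each. In Gabra6 (chr11:42321073-42321322, minus strand) the capitals mark CG dinucleotides.
Gabrb2: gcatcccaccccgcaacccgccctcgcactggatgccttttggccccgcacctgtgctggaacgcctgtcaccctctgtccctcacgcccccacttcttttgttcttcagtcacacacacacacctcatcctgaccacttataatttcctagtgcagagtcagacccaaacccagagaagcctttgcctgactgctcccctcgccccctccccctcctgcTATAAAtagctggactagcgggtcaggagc
Gabra6: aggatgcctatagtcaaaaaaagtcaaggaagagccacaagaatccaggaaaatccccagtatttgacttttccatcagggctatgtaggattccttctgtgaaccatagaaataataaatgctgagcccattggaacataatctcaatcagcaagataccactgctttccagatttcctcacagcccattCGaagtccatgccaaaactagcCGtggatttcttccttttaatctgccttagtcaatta
TATAAA, searched on both strands of windows reaching from 250 bases before to 50 after a start, occurs in 13.6% of the 32817 windows of the table. Over the whole 300-base window shown here in part Gabrb2 holds 11 CG dinucleotides and Gabra6 holds 2, against a median of 7 over all windows. These are descriptions of the letters and were not related to the measurements.

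The libraries differed in their levels of regional marker genes. Regional marker scores, the mean over a list of marker genes of log2 CPM (the count scaled to a common library size after TMM normalisation) minus each gene's mean over the 9 libraries, were computed for 16 lists. Summed CPM of the 10 cerebellar granule cell markers (Gabra6 not among them) ranged from 150 to 5981 in CON, from 134 to 581 in DNP and from 138 to 2970 in BAC, with 10 of 10 markers lower in DNP than in CON by fold change. No granule cell marker was at 0 throughout a group. Summed CPM of 15 brainstem and spinal cord markers was 415 in DNP replicate 1, 556 in BAC replicate 1 and 502 in BAC replicate 3, and at most 29.5 in any other library. In CON, 8 of these 15 markers had no count in any library (Hoxa3, Hoxa4, Hoxa5, Hoxb2, Hoxb3, Hoxb6, Hoxc4 and Hoxc5). Such zeros were not particular to CON. By library, 12, 9 and 13 markers were at 0 in CON replicates 1 to 3, 12 in DNP replicate 2, 11 in DNP replicate 3 and 13 in BAC replicate 2. In bulk tissue, fewer cells of a type and less RNA per cell cannot be told apart.

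Levels were first compared between genes on the FPKM scale, which is per length. The lengths implied by the deposited FPKM were 8815 bases for Gabra4, 5176 for Gabra5 and 13934 for Gabrb1. In the GENCODE annotation the exons of these genes cover 6083, 2974 and 13838 bases, so the order between genes depends on the lengths used. Gabra3 had the highest level, with a mean of 21.7 FPKM over the 9 libraries (range 6.24 to 26.6), and it ranked first among the members in 7 of 9 libraries. Gabra6 followed with a mean of 17.2 FPKM, but its range ran from 0 to 75.9, so that its place in the order changed from first to last between libraries. Gabrb2 had a mean of 13.8 FPKM (5.83 to 22.3). Gabra5 with 9.57 FPKM (2.63 to 16.2), Gabrb1 with 8.39 FPKM (6.08 to 11.8) and Gabra4 with 8.22 FPKM (2.86 to 13.0) had overlapping ranges and did not differ beyond their spread. Gabra2 was lowest at 3.30 FPKM (1.66 to 5.14).

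**Figure D1:**
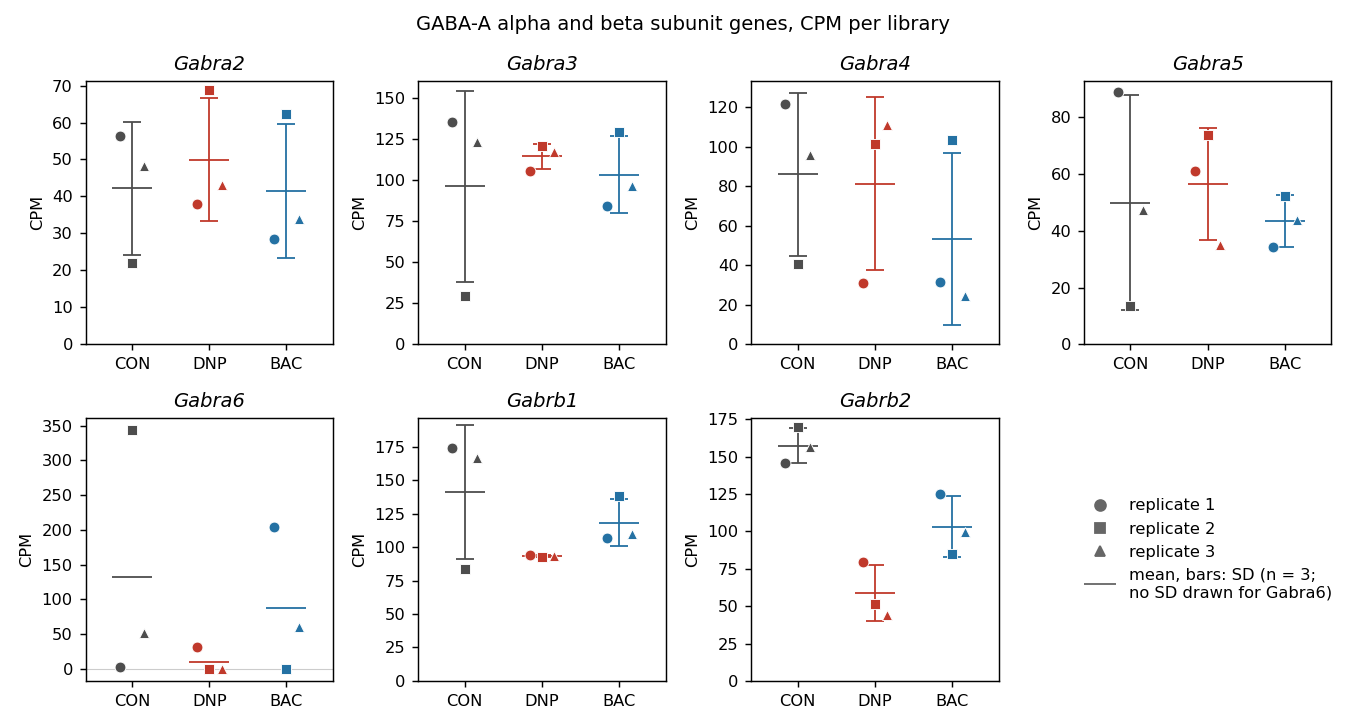
CPM of each member (vertical axes, linear) in the 3 groups, with 1 symbol per library, a line at the mean and bars for the SD (n = 3, not drawn for Gabra6). Gabrb2 is the member whose CON libraries, 146 to 170 CPM, all lie above the DNP libraries, 44.4 to 79.8 CPM, while the alpha genes overlap between groups. Of all tested genes, 18.2% do not overlap between CON and DNP, in either direction.

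Gabrb2, which encodes the beta2 subunit found with alpha and gamma partners in many synaptic receptors, was the member that differed most evenly between groups. It stood at 146, 170 and 157 CPM in CON replicates 1 to 3, at 79.8, 51.6 and 44.4 CPM in DNP, and at 125, 84.6 and 99.6 CPM in BAC. Within each group, the libraries stood in the same order by Gabrb2 level as by granule cell score. Those scores were -1.59, 3.56 and 0.93 in CON, 0.51, -2.15 and -2.58 in DNP, and 2.59, -2.53 and 1.27 in BAC. Every DNP library was below every BAC library, and every BAC library was below every CON library. The log2 fold change of DNP versus CON was -1.42 ± 0.24 (SE, n = 3 per group), with an adjusted p of 0.294 by edgeR's quasi-likelihood test. BAC was higher than DNP by 0.81 ± 0.24 on the log2 scale (edgeR adjusted p = 0.998) and differed from CON by -0.61 ± 0.24 (edgeR adjusted p = 0.628). Both diabetic groups together differed from CON by -1.02 ± 0.20 (edgeR adjusted p = 0.295). None of these passed the threshold of 0.05 after Benjamini-Hochberg adjustment over the 18501 genes tested. DESeq2, on the same counts, called Gabrb2 lower in DNP than in CON (log2 fold change -1.44, adjusted p = 0.000111) and lower in both diabetic groups together (adjusted p = 0.00267). The comparisons of DNP with CON and of BAC with DNP share the DNP libraries, and those against CON share the CON libraries.

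The Gabrb2 difference was also measured with 2 of the 16 marker scores in the fit. With the granule cell and brainstem scores as covariates, DNP versus CON was -1.46 and BAC versus DNP was 0.60 on the log2 scale. Without the 3 libraries of lowest granule cell score (DNP replicates 2 and 3 and BAC replicate 2), DNP versus CON was -0.99 (edgeR adjusted p = 0.248) and BAC versus DNP 0.52, the single DNP library left being assumed to vary like the others. Without the 3 libraries of highest brainstem score, the values were -1.73 and 0.82, with the same assumption for the single BAC library left. The direction was the same in each of these fits. Other measures separated CON from DNP completely, as Gabrb2 did, and their part in the Gabrb2 result was not tested. Summed CPM of 8 Purkinje cell markers was 1101 to 5672 in CON, 537 to 769 in DNP and 852 to 2865 in BAC, with 8 of 8 lower in DNP than in CON. The Purkinje cell score, in which each marker weighs alike, did overlap, at -1.27 in CON replicate 1 and 0.43 in DNP replicate 1. Summed CPM of 5 blood markers was 188 to 218 in CON, 477 to 683 in DNP and 471 to 735 in BAC, and that of 8 oligodendrocyte markers was 2149 to 3006 in CON, 3595 to 8995 in DNP and 2910 to 9183 in BAC, with 0 markers of either list lower in DNP. None of these markers was at 0 throughout a group. Mitochondrial genes took 4.34% to 5.36% of counts in CON, 6.68% to 7.01% in DNP and 5.94% to 7.23% in BAC.

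Gabrb1, which encodes the beta1 subunit, had a narrow range in DNP. Its levels were 174, 83.8 and 166 CPM in CON, 94.0, 93.0 and 93.3 CPM in DNP, and 107, 139 and 110 CPM in BAC. The DNP libraries lay below all BAC libraries, but CON replicate 2 was lower than any of them, so that CON overlapped DNP. The log2 fold change of DNP versus CON was -0.60 ± 0.26 (edgeR adjusted p = 0.444). It was -0.87 without CON replicate 2 and -1.14 with the regional scores as covariates, with no adjusted p under 0.05 in either fit. BAC versus DNP was 0.34 ± 0.26 (edgeR adjusted p = 0.998), BAC versus CON -0.26 ± 0.26, and both diabetic groups against CON -0.43 ± 0.22.

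The 5 alpha genes did not separate the groups. Gabra2 was at 56.3, 22.0 and 48.3 CPM in CON, at 38.0, 68.9 and 43.1 CPM in DNP and at 28.4, 62.3 and 33.8 CPM in BAC. Its log2 fold change was 0.24 ± 0.42 in DNP versus CON and -0.27 ± 0.42 in BAC versus DNP. Its 3 highest libraries, CON replicate 1, DNP replicate 2 and BAC replicate 2, were also the 3 with the highest striatal projection neuron score.

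Gabra3, the alpha subunit with the highest mean level per length here, showed 1 library apart from the rest. It was at 136, 29.6 and 124 CPM in CON, at 106, 121 and 117 CPM in DNP and at 84.2, 130 and 96.7 CPM in BAC. CON replicate 2, the library with the most granule cell marker signal, was the low one. DNP versus CON was 0.25 ± 0.47 on the log2 scale and BAC versus DNP -0.15 ± 0.47.

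Gabra4, whose product forms extrasynaptic receptors in thalamus, dentate gyrus and striatum, fell into a low and a high set of libraries that cut across the groups. It was at 121, 40.6 and 95.9 CPM in CON, at 31.1, 101 and 111 CPM in DNP and at 31.5, 103 and 24.5 CPM in BAC. The 4 low libraries were CON replicate 2, DNP replicate 1 and BAC replicates 1 and 3, which are also the 4 with the lowest scores for pallial excitatory neurons. This was not particular to the pallial list. The same 4 libraries had the lowest striatal projection neuron and microglia scores and the highest astrocyte scores. The log2 fold change was -0.08 ± 0.67 for DNP against CON, -0.61 ± 0.67 for BAC against DNP and -0.70 ± 0.67 for BAC against CON.

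Gabra5, an alpha subunit prominent in hippocampus, was at 89.0, 13.5 and 47.4 CPM in CON, at 61.1, 73.7 and 35.0 CPM in DNP and at 34.3, 52.4 and 43.7 CPM in BAC. The lowest and the highest library were both controls. DNP versus CON was 0.18 ± 0.57 and BAC versus DNP -0.38 ± 0.57 on the log2 scale.

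Gabra6 varied more than any other member. Its counts were 42, 4828 and 735 in CON, 432, 0 and 0 in DNP, and 2808, 0 and 954 in BAC, or 2.79, 344 and 51.6 CPM in CON, 31.3, 0 and 0 CPM in DNP, and 204, 0 and 60.1 CPM in BAC. The 3 libraries at 0 were the same 3 that had the lowest granule cell scores, although those scores do not use Gabra6. The fitted log2 fold changes, -3.67 ± 2.51 in DNP versus CON and 3.08 ± 2.45 in BAC versus DNP, had standard errors near their own size. Each diabetic group held libraries with and without Gabra6 counts.

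**Figure D2:**
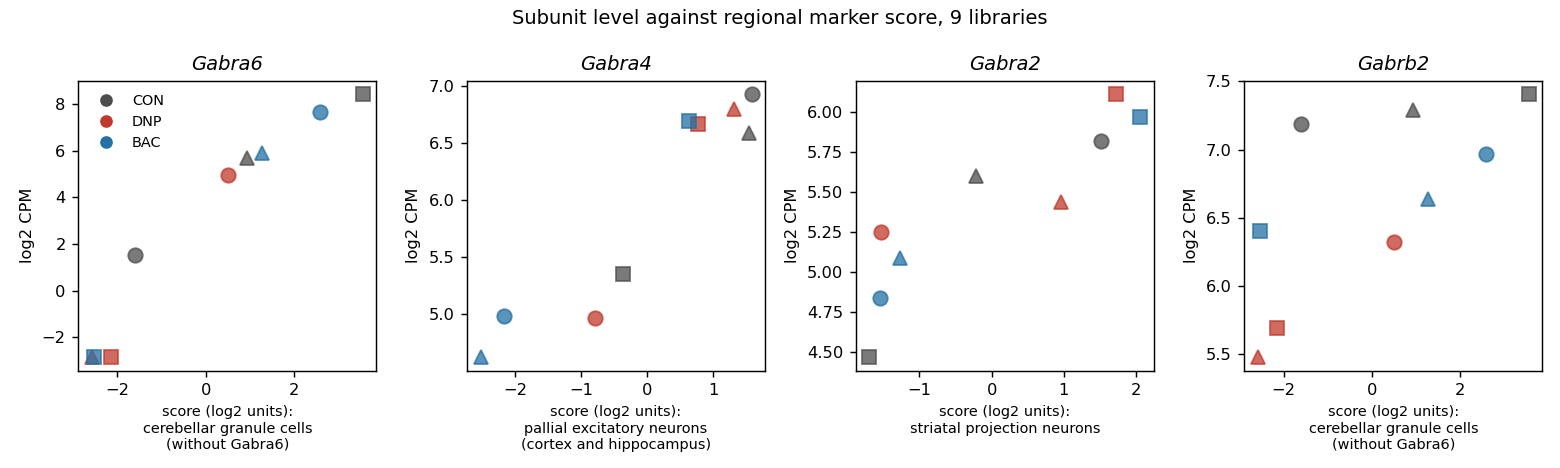
Level of 4 members (vertical axes, log2 CPM) against a regional marker score (horizontal axes, log2 units), 1 point per library, coloured by group. Gabra6 follows the granule cell score and Gabra4 the pallial score across all groups, and the DNP libraries hold the 3 lowest Gabrb2 levels. The libraries low in Gabra4 also had the lowest striatal and microglia scores and the highest astrocyte scores, which are not drawn for Gabra4.

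Over the members as a set, none was called by edgeR at an adjusted p under 0.05 in any of the 4 comparisons, where the share of all tested genes called was 0.0% each time. At an unadjusted edgeR p under 0.05, 2 of 7 members passed in DNP versus CON (Gabrb1 and Gabrb2, both lower), against 11.2% of all tested genes. In each of the other comparisons 1 of 7 passed, Gabrb2 (higher in BAC than DNP, lower than CON in the others), against 2.37% of genes in BAC versus DNP, 7.76% in BAC versus CON and 11.8% in both diabetic groups versus CON. DESeq2 at an adjusted p under 0.05 called 1 of 7 in DNP versus CON, where 1.87% of genes were called, and 1 of 7 in both diabetic groups versus CON, where 1.95% were. It called 0 of 7 in BAC versus DNP (0.0378% of genes, 1 member at an unadjusted p under 0.05) and 0 of 7 in BAC versus CON (0.546% of genes, 1 member at an unadjusted p under 0.05). Libraries of the groups did not overlap for 1 member in DNP versus CON, against 18.2% of genes, for 2 members in BAC versus DNP (Gabrb1 and Gabrb2, both higher), against 6.79%, for 1 in BAC versus CON, against 13.4%, and for 1 in both diabetic groups versus CON, against 6.95%. The median log2 fold change of the members was -0.08 in DNP versus CON, where that of all tested genes was 0.01.

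**Figure D3:**
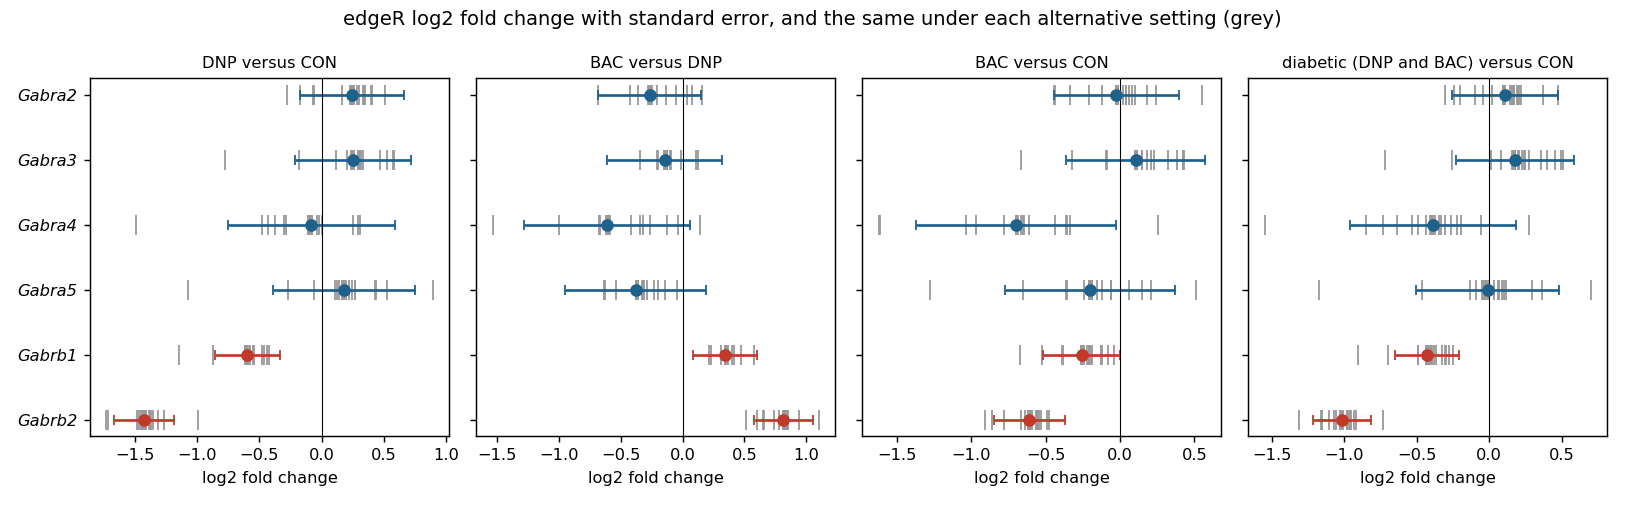
Log2 fold change of 6 members (horizontal axes) in the 4 comparisons, as the edgeR estimate with its standard error (points and bars, alpha genes blue and beta genes red), with a grey tick for each alternative setting. Gabra6 is left out because 2 of its DNP libraries were at 0. The Gabrb2 values lie on 1 side of 0 under every setting in each comparison, and those of the 4 alpha genes lie on both sides, except Gabra5 in BAC versus DNP.

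The make-up of the receptor genes was compared as shares of the summed FPKM of the 5 alpha genes, and as the log2 ratio of Gabrb1 to Gabrb2 FPKM. The size of each share also depends on the gene lengths used. Gabra3 made up 31.2% ± 21.1 (SD, n = 3) of the alpha sum in CON, 47.9% ± 3.67 in DNP and 39.0% ± 13.9 in BAC. Gabra6 made up 34.3% ± 43.4 in CON, 4.84% ± 8.38 in DNP and 29.2% ± 29.9 in BAC, and it alone was 83.3% of the sum in CON replicate 2. The log2 ratio of Gabrb1 to Gabrb2 was -1.08 ± 0.69 in CON, -0.14 ± 0.43 in DNP and -0.65 ± 0.47 in BAC. On this scale Gabrb2 was on average the higher of these beta genes in each group. In DNP the ratio was -0.62, -0.0096 and 0.21 in replicates 1 to 3, so the order there was not uniform. In CPM, which is not per length, Gabrb1 was above Gabrb2 in every DNP library. The difference of DNP from CON in the log2 ratio was 0.94 (exact two-sided permutation test, p = 0.2, adjusted p = 0.686). CON replicate 2 decided much of these values: without it the difference of DNP from CON was 4.62 percentage points for Gabra3 in place of 16.8, -4.92 for Gabra6 in place of -29.4, and 0.55 for the log2 ratio. Over the 24 tests of this kind the smallest exact p was 0.1, which is also the smallest that 3 libraries against 3 allow, and no adjusted p was under 0.686.

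**Figure D4:**
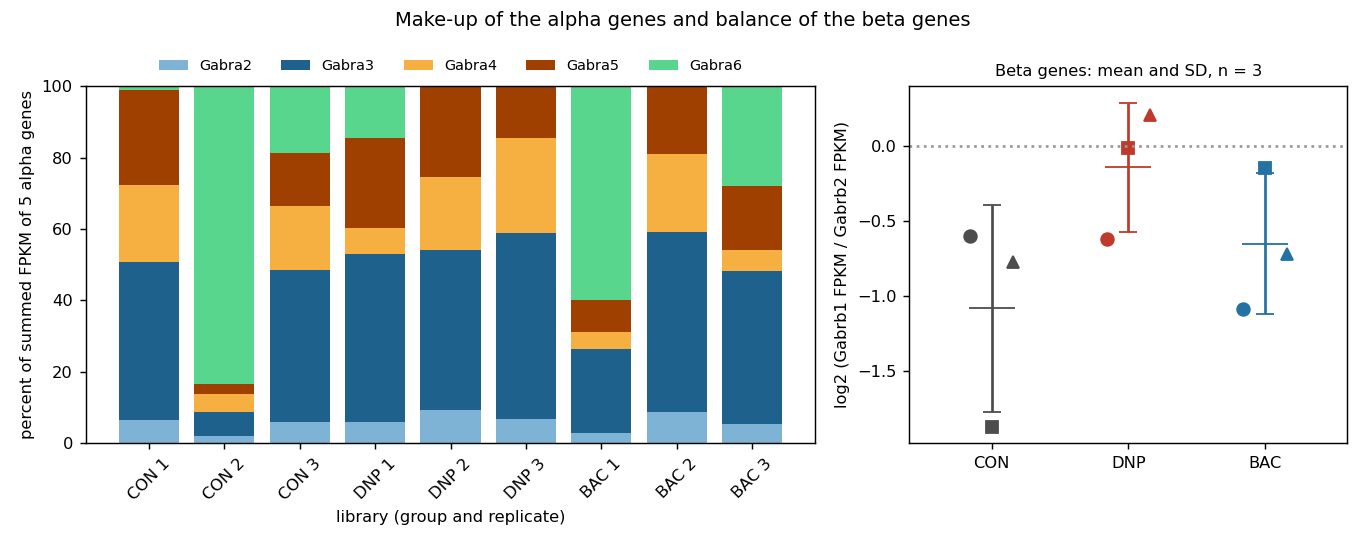
Left, percent of the summed FPKM of the 5 alpha genes taken by each gene, 1 bar per library. Right, log2 ratio of Gabrb1 to Gabrb2 FPKM per library with mean and SD (n = 3). Gabra6 takes from 0% to 83.3% of a bar, and the ratio of the beta genes overlaps between the groups.

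Relations between member and regional score over the 9 libraries were computed for 112 pairs, and those given here were chosen after their values were seen. Log2 CPM of Gabra2 correlated with the striatal projection neuron score (Pearson r = 0.895, exact permutation p = 0.00125, adjusted p = 0.0177; Spearman rho = 0.950, exact permutation p = 0.000353, adjusted p = 0.00988). Without the 2 libraries farthest from the median score r was 0.819, and on values centred within each group it was 0.895. The relation was not particular to that list: with the microglia score Gabra2 had r = 0.869 (exact permutation p = 0.00142, adjusted p = 0.0177), rho = 0.933 (exact permutation p = 0.000750, adjusted p = 0.0168), r = 0.776 without the 2 farthest libraries and r = 0.963 centred within groups. Gabrb1 had r = 0.711 with the score of hippocampal pyramidal and dentate neurons (exact permutation p = 0.0258, adjusted p = 0.131; rho = 0.817, exact permutation p = 0.0108, adjusted p = 0.101), which dropped to 0.0925 without 2 libraries and so rests on them. Gabra2 also had r = -0.881 with the granule cell score (exact permutation p = 0.00234, adjusted p = 0.0222) and -0.865 with the Purkinje cell score (exact permutation p = 0.00336, adjusted p = 0.0269). The libraries form separate clusters on these scores, which the permutation does not take into account, so these p-values can overstate the relation. On the striatal score the libraries are clustered too. CON replicate 2, DNP replicate 1 and BAC replicates 1 and 3 lie between -1.69 and -1.27, and they have the lowest Gabra2 levels. For the granule cell, Purkinje cell and brainstem scores, and for Gabra4, the libraries form separate clusters of fewer than 6, and no further pooled correlation is given.

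The genes whose log2 CPM pattern over the 9 libraries was most like each member were taken from 16776 genes with a mean of at least 1 CPM. For Gabra6 they were Cnpy1 (r = 0.999), Cbln3 (r = 0.998), a gene of cerebellar granule cells that is also in the marker list, and Ccdc186 (r = 0.997). For Gabrb2 they were Cdyl2 (r = 0.984), Stxbp5l (r = 0.978) and Vps13b (r = 0.977), and for Gabrb1 they included Epha6 (r = 0.955) and Rapgef5 (r = 0.945). The nearest to Gabra2 were Fndc3b (r = 0.993), D430020J02Rik (r = 0.984) and Sh3bp4 (r = 0.984). For Gabra3 they were Slc35f4 (r = 0.989), Oscp1 (r = 0.988) and Gm2136 (r = 0.985), for Gabra4 Arr3 (r = 0.994), Nog (r = 0.992) and Atxn1 (r = 0.991), and for Gabra5 St3gal1 (r = 0.973), Wdpcp (r = 0.967) and Nus1 (r = 0.958). With 9 points and so many genes, values this high are a description only.

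The other genes of GABA-A signalling were taken from 3 lists with 42 genes, of which 38 were tested. None was called by edgeR in any comparison, and DESeq2 called 2 of them for DNP against CON, 0 for BAC against DNP, 2 for BAC against CON and 3 for both diabetic groups against CON, where it called 1.87%, 0.0378%, 0.546% and 1.95% of all tested genes. Among the gamma, delta, epsilon, theta, pi and rho subunits, 7 of 10 were tested, and 3 had an unadjusted edgeR p under 0.05 in DNP versus CON, all higher, where 11.2% of all tested genes did. Gabre, the epsilon subunit, was at 0.265, 0.0713 and 0.0702 CPM in CON, 5.87, 0.205 and 1.31 CPM in DNP and 4.00, 1.59 and 5.48 CPM in BAC. Gabrq, the theta subunit, was at 1.19, 0 and 0.562 CPM in CON, 18.5, 1.98 and 1.90 CPM in DNP and 13.4, 3.52 and 23.1 CPM in BAC. The 3 highest libraries of both genes were the 3 with high brainstem scores, and the part of that difference in the result was not tested for them. Gabrr2, a rho subunit, had a log2 fold change of 1.57 ± 0.48 (edgeR adjusted p = 0.352).

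Of the assembly, trafficking and anchoring partners, 24 of 25 were tested, and 2 had an unadjusted edgeR p under 0.05 in DNP versus CON, both higher, which is no larger a share than the 11.2% of all tested genes. Gabarap, which binds the gamma2 subunit and takes part in receptor transport, was at 81.1, 80.1 and 82.4 CPM in CON, 117, 105 and 111 CPM in DNP and 92.5, 100.3 and 114 CPM in BAC. The CON libraries lay below all others, and the log2 fold change of DNP versus CON was 0.45 ± 0.12 (edgeR adjusted p = 0.325). Of all tested genes, 6.95% did not overlap between CON and the diabetic groups, in either direction. Plcl1, a binding partner of beta subunits, had 1.06 ± 0.41 (edgeR adjusted p = 0.404) and Hap1, which takes part in returning receptors to the surface, 0.64 ± 0.34 (edgeR adjusted p = 0.512). Plcl1 was at 35.3, 22.7 and 32.0 CPM in CON, 101, 38.8 and 47.7 CPM in DNP and 67.1, 37.2 and 83.3 CPM in BAC, and its 3 highest libraries were again those with high brainstem scores. Of the 7 genes of GABA synthesis, packaging and uptake none had an unadjusted edgeR p under 0.05 in that comparison. Slc6a11, the GABA transporter GAT3, was at 173, 92.0 and 160 CPM in CON, 622, 262 and 146 CPM in DNP and 376, 238 and 679 CPM in BAC. The libraries with high brainstem scores were its 3 highest, and DNP replicate 3 lay within the CON range. It had a log2 fold change of 1.28 ± 0.57 in DNP versus CON (edgeR adjusted p = 0.447), and Gad2, a GABA-synthesising enzyme, had 0.38 ± 0.28.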

How the data were processed

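Whole-brain poly(A) RNA of 3 mice per group was sequenced as paired-end, non-strand-specific libraries. Per the submitters' processing notes and the study's methods, reads were checked with FastQC 0.11.9, filtered with fastp, aligned to GRCm38 with HISAT2 2.1.0 (Bowtie2 2.3.4.1 for related processing) and quantified with StringTie 1.3.3b. The authors deposited raw read counts per gene and, in a second table, FPKM values. The deposited FPKM values equal the count divided by gene length and library total: over 12216 genes the implied length differed between libraries by a ratio of at most 1.000018, so that they carry no TMM factor.

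The deposited counts were analysed with edgeR 4.0.16 (R 4.3.3) by the quasi-likelihood test in 1 fit of all 9 libraries, with TMM normalisation and genes kept by filterByExpr (minimum count 10), which left 18501 of 53465 genes and all 7 members. P-values were adjusted over these genes by the Benjamini-Hochberg method with a threshold of 0.05. DESeq2 1.42.0, the tool of the study, and limma 3.58.1 on log2(FPKM + 1) and log2(FPKM + 0.1) were alternatives, with other normalisations, filters, regional scores as covariates and left-out libraries. FPKM shares were compared by exact permutation tests (scipy 1.17.1). The edgeR step was tested on simulated data. The biological coefficient of variation was 36.5%. Total counts of 13107382 to 16008129 give each member other than Gabra6 at least 189 counts per library, and no 2 libraries of a group agreed within sampling noise (chi-square per degree of freedom 14.3 or more).

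All 7 members were named whatever their values, with the 3 genes most like each in pattern and the 3 genes of smallest edgeR p in DNP versus CON from each of 3 gene lists. The members and lists were chosen with earlier results of these data known. Same-numbered libraries did not deviate together consistently, with correlations from -0.58 to 0.56 over 9 pairs. Further subunit genes, and 2 genes that this rule names, are not reported here.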

Additional observations from a re-analysis of the deposited data

How the results depend on the processing

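Of 630 alternative values of the members' log2 fold changes over 23 settings, 58 changed sign, all of them in alpha genes. Gabrb2 kept its direction throughout, from -1.73 to -0.99 in DNP versus CON (adjusted p from 0.000111 to 0.628) and from 0.52 to 1.10 in BAC versus DNP (adjusted p from 0.604 to 1.0). DESeq2 called 1 member in DNP versus CON and 1 in both diabetic groups versus CON, where edgeR called 0, and 2, 2 and 3 genes of the fixed lists in DNP versus CON, BAC versus CON and both diabetic groups versus CON. The cause of these changes was not tested.

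With granule cell and brainstem scores as covariates, DNP versus CON was -0.28 for Gabra2, -0.77 for Gabra3 and -1.07 for Gabra5. BAC versus DNP was then 0.074 for Gabra2, 0.11 for Gabra3, 0.14 for Gabra4 and -1.17 for Gabra6. BAC versus CON was -0.66 for Gabra3, and both diabetic groups versus CON -0.24 for Gabra2 and -0.72 for Gabra3. Without the 3 libraries of highest brainstem score, Gabra2 was 0.16 and Gabra3 0.13 in BAC versus DNP, and Gabra4 was 0.29 in DNP versus CON. In BAC versus CON these fits gave 0.55 for Gabra2, 0.26 for Gabra4 and 0.061 for Gabra5, and in both diabetic groups versus CON 0.27 for Gabra4 and 0.086 for Gabra5. They held a single BAC library, replicate 2, so their BAC values rest on that library. Without the 3 libraries of lowest granule cell score, Gabra2 was -0.17 in DNP versus CON and -0.30 in both diabetic groups versus CON. In BAC versus CON Gabra3 was then -0.088 and Gabra6 0.020. That fit held a single DNP library, replicate 1, so its DNP values rest on that library.

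Gabra2 in BAC versus CON became 0.040 with library totals only, 0.021 with upper-quartile factors, 0.039 with limma on log2(FPKM + 1) and 0.061 with a pseudocount of 0.1. Gabra5 in both diabetic groups versus CON became 0.064, 0.034, 0.29 and 0.37 in the same order, and in BAC versus CON 0.15 and 0.21 with limma. The replicate block, which takes the replicate number of the titles as a term, gave 0.10 for Gabra5 in both diabetic groups versus CON and -1.47 for Gabrb2 in DNP versus CON, and it called 0 members. Correlations of same-numbered libraries ran from -0.58 to 0.56 over 9 pairs, so the numbers were not taken to pair the mice.

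Leaving out 1 library at a time gave, in DNP versus CON, -0.072 to 0.51 for Gabra2, -0.18 to 0.58 for Gabra3, -0.43 to 0.30 for Gabra4 and -0.27 to 0.89 for Gabra5. In BAC versus DNP the range was -0.68 to 0.038 for Gabra2. In BAC versus CON it was -0.44 to 0.24 for Gabra2, -0.32 to 0.43 for Gabra3, -0.65 to 0.51 for Gabra5 and -2.16 to 1.70 for Gabra6. In both diabetic groups versus CON it was -0.20 to 0.37 for Gabra2, -0.25 to 0.51 for Gabra3, -0.46 to 0.70 for Gabra5 and -2.92 to 0.15 for Gabra6. The difference of DNP from CON in the Gabra4 share ran from -1.45 to 8.81 percentage points, that in the Gabra3 share from 4.62 to 23.3, that in the Gabra6 share from -46.1 to -4.92, and that in the log2 ratio of Gabrb1 to Gabrb2 from 0.55 to 1.18. With Gabra6 left out of the alpha sum, the difference of DNP from CON was -6.11 points for Gabra4 and -0.595 for Gabra2, and that of BAC from DNP was 0.0595 for Gabra2 and 5.67 for Gabra3.

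Fits in which a group kept only libraries with 0 counts gave no value for Gabra6, and a fit of only the groups compared was not made for both diabetic groups together. The 6 members other than Gabra6 had at least 189 counts in every library, and for Gabra6 a count of 0 allows up to 3 counts.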
